A study of Mus musculus with 4 samples.

Results

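The genes examined here encode RNA polymerase II (Pol II) and the factors that help it elongate and terminate. They are 54 of the 24984 genes of the count table, taken by symbol from a list of Pol II subunits, histone chaperones, the PAF1 complex, the elongation factor TFIIS, the super elongation complex, kinases and cyclins of the Pol II carboxy-terminal domain (CTD), the Integrator complex, and cleavage and termination factors. All 54 symbols were found, all 54 reached a mean CPM (the fragments of a gene scaled to the total of its library) of 1 or more, and none lay on a sex chromosome. The list was divided into 6 groups by role.

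The measurement was TTchem-seq, in which RNA made during a pulse of 4-thiouridine is tagged, fragmented, purified and sequenced, so that the fragments over a gene, introns included, follow its transcriptional output rather than its mRNA level. The cells were double positive (DP) thymocytes, the stage of T cell development that carries both CD4 and CD8, moved to fresh medium for 0.5 h before labelling. The wild-type group (WT, genotype Tox4;F/F) has both Tox4 alleles flanked by loxP sites and no Cre, and the conditional knockout group (cKO, genotype Tox4;F/F;Lck+) adds a Cre transgene under the proximal Lck promoter, which removes exons 4 to 6 of Tox4 in T lineage cells from an early thymic stage on. Both groups share the floxed alleles. Per the study's methods the mice were C57BL/6, 6 to 8 weeks old and gender-matched littermates. Each group had 2 libraries, and nothing says how many mice stand behind each, so p-values measure the spread between these libraries.

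Pol II is built from a large catalytic subunit, RPB1, whose CTD repeats are phosphorylated as transcription proceeds, and a set of smaller subunits, some of them shared with Pol I and Pol III. After release from the promoter, the polymerase travels with histone chaperones and the PAF1 complex, is stimulated by the super elongation complex and rescued from backtracking by TFIIS, and is removed by Integrator near promoters or by the cleavage and polyadenylation machinery and the exonuclease XRN2 past gene ends. TOX4 is a partner of the PNUTS-WDR82-PP1 phosphatase complex, which acts on Pol II and its elongation factors. The comparison asked whether the genes of this machinery were transcribed at another rate in DP cells without intact Tox4.

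Total fragments per library ran from 38429786 to 48690591. Tox4, the targeted gene, gave 74.04 and 70.3 CPM in WT and 59.3 and 57.2 CPM in cKO, in the order of replicates 1 and 2 that is kept throughout, and was called lower (log2 fold change of cKO over WT -0.31, SE 0.0998, DESeq2 adjusted p = 0.0453), a call that was lost with edgeR (adjusted p = 0.153) and limma voom (adjusted p = 0.145). Counts run over the whole gene, so fragments from outside the removed exons are still counted, and in bulk cells less RNA per cell and fewer cells with the RNA cannot be told apart. All 8 DP markers were above 1 CPM in every library and summed to between 5013 and 5583 CPM, although Cd8a and Rag1 were called lower in cKO. Among markers of mature single positive cells reported here, Il7r was called higher (61.96 and 61.7 CPM in WT, 83.1 and 75.8 CPM in cKO) and Ccr7 lower (255 and 243 CPM in WT, 213 and 181 CPM in cKO). In contrast, 5 erythroid markers summed to at most 0.516 CPM, 5 B cell markers to at most 10.1 CPM (mostly Ebf1), 5 myeloid markers to at most 11.9 CPM and 4 thymic epithelial markers to at most 1.13 CPM. WT replicate 1 stood apart in having 172 CPM of Xist, against at most 2.36 CPM in the others, which goes against the gender matching that the methods state, and it had the lowest level of all 10 proliferation genes checked, which summed to 236 CPM there and to 422, 502 and 395 CPM in WT replicate 2 and the cKO libraries. The part of these differences in the results below was not tested beyond leaving out each library in turn.

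The promoters of 4 members to which the results return are shown first: Polr2a, the gene of RPB1, and 3 of the 5 genes with an unadjusted p under 0.05 in the comparison. Those of the other 2, Cdk12 and Cdk13, are not shown, since predicted RefSeq transcripts of both begin upstream of the start used in the count table. Each line holds the 150 bases before the transcription start, which is the same in RefSeq and in the count table for these 4, 5′ to 3′ on the gene's own strand, from RefSeq on GRCm38.p6, the build of the count table. They are chr11:69758634-69758783 (minus) for Polr2a, chr7:141475154-141475303 (minus) for Polr2l, chr13:75707334-75707483 (plus) for Ell2 and chr14:31494929-31495078 (plus) for Eaf1. Capitals mark matches, on either strand, to the TATA box (TATAAA), the CCAAT box (CCAAT), the GC box of Sp1 (GGGCGG) and the ETS motif (CCGGAAG).
Polr2a: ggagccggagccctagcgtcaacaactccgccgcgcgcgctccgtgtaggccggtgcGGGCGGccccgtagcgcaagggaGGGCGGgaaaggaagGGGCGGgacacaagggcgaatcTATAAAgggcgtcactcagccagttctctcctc
Polr2l: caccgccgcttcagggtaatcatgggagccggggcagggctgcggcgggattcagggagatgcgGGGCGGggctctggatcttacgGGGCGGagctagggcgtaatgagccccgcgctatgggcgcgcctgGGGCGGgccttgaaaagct
Ell2: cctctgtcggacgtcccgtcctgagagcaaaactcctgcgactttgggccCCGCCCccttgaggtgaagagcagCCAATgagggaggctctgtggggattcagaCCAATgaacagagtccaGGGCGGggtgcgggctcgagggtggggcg
Eaf1: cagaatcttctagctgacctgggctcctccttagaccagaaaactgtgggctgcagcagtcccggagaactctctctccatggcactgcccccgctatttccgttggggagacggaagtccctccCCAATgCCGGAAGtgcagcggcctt

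Of these 4 windows, that of Polr2a alone held a TATA box, downstream of 3 GC boxes. RefSeq promoters of 300 bases (250 before to 50 after the start nearest to that of the count table) were matched to 42 of the 54 members. TATAAA stood in 4.76% of them, against 6.37% of the promoters of the 8928 expressed genes with one and 12.8% of all 17881. The CCAAT box was in 38.1% of members and 39.7% of expressed genes, and the GC box in 64.3% and 66.4%. CCGGAAG was in 33.3% of members (14 promoters) against 20.4% of expressed genes. The other motifs rest on few promoters: AAGATGGCG (YY1) was in 7.14% (3 promoters) against 3.58%, the NRF1 palindrome in 4.76% (2 promoters) against 2.41%, and TGACGTCA (the CRE) in 4.76% (2 promoters) against 3.56%. Members had a median of 26 CpG dinucleotides per promoter and expressed genes 22. A match describes these letters only, and motifs that overlap were counted separately.

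The machinery genes were all measured in DP cells, at levels that differed widely between genes. Scaled to gene length, the median member had 2.67 CPM per kb, averaged over the 4 libraries, against 1.46 CPM per kb for the 11625 genes whose mean CPM was 1 or more. Aff1, the scaffold of the super elongation complex, was highest at 19.3 CPM per kb, which is above 97.4% of those genes. Eaf1 at 8.52 CPM per kb and Polr2a at 7.20 CPM per kb followed. The lowest were Eaf2 at 0.0643 CPM per kb and Ell2 at 0.154 CPM per kb, both from the same complex. Fragments per library ran from 136.5 for Polr2k to 89922 for Aff1, so the genes differ in how precisely they were measured.

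**Figure D1:**
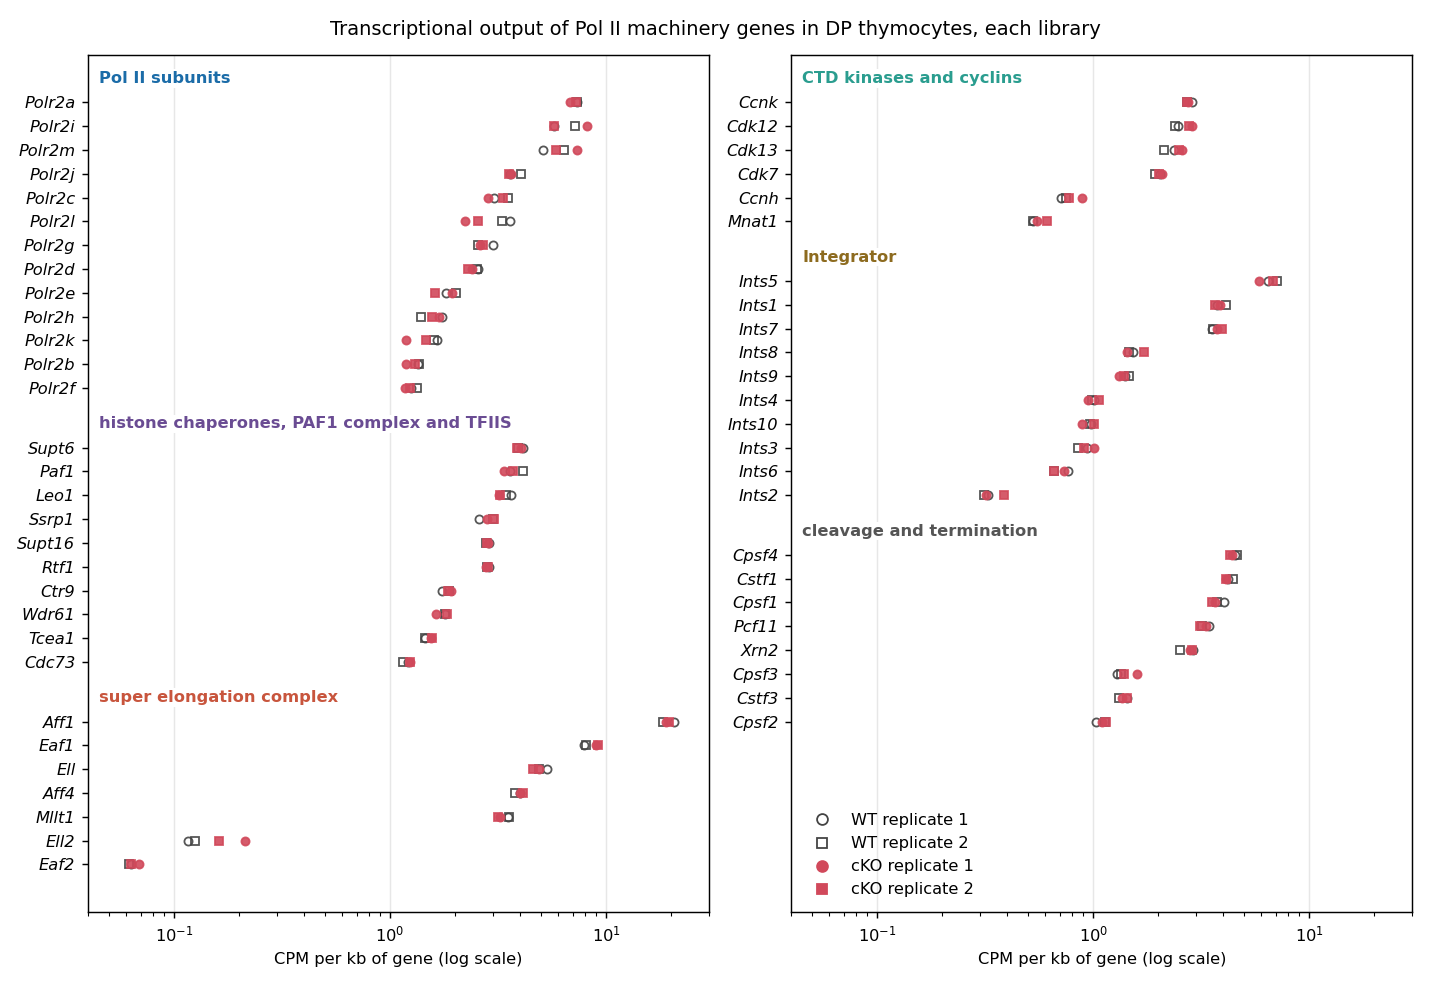
Transcriptional output of the 54 genes in CPM per kb of gene (log axis), with 1 point for each of the 4 libraries and genes ordered by level within each role. Most genes lie between 1 and 10 CPM per kb with the 4 libraries close together, Aff1 lies near 19.3, and Ell2 and Eaf2 lie at 0.154 and 0.0643 on average.

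No gene of the machinery passed the test between cKO and WT. A gene was called when its DESeq2 adjusted p was below 0.05, its fold change at least 1.2 and its mean CPM 1 or more. Across these 11625 genes, 431 were called (3.71%), of which 249 were higher in cKO (2.14%) and 182 lower (1.57%). Of the 54 members 0 were called higher and 0 lower, and the share over all genes corresponds to 2.002 members. That share depended on the libraries: leaving out WT replicate 2 gave 320 genes called higher and 126 lower, whereas these numbered 113 and 71 without WT replicate 1, 78 and 48 without cKO replicate 1, and 61 and 28 without cKO replicate 2. At an unadjusted DESeq2 p under 0.05 there were 5 members (9.26%), against 13.5% of all genes. Ell2, Cdk12, Cdk13 and Eaf1 had a positive log2 fold change (4 members, 7.41%, against 7.2% of all genes) and Polr2l a negative one (1 member, 1.85%, against 6.31%). By edgeR and by limma voom 0 members were called as well, where 0.499% and 0.516% of all genes were called. An unadjusted p under 0.05 was given to 6 members by each (11.1%), the same 5 and Mllt1, against 15.6% of all genes by edgeR and 15.7% by limma voom.

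Neither direction prevailed over the 54 genes. Log2 fold changes were positive for 26 and negative for 28, with a median of -0.02, beside a median of 0.00 over all genes. The cKO libraries both exceeded the higher WT library for 12 members (22.2%), against 24.9% of all genes, and both fell short of the lower WT library for 13 (24.1%), against 24.0%. The median absolute difference between the members' replicates was 0.0776 on the log2 scale in WT and 0.0749 in cKO, against 0.115 and 0.124 over all genes. The median absolute log2 fold change between genotypes was 0.0875, against 0.128 over all genes. This last measure compares groups of 2 libraries rather than single libraries, so it is not on the same footing as the replicate differences.

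The 95% intervals say how large a difference these libraries leave possible. They lay wholly within a 1.2-fold difference for 16 members (29.6%, against 17.5% of all genes), within 1.5-fold for 49 (90.7%, against 64.6%) and within 2-fold for 53 (98.1%, against 84.5%). The 5 that reached beyond 1.5-fold were Polr2e, Polr2k, Polr2l, Eaf2 and Ell2, with at most 13.8 CPM in any library, and the interval of Ell2 alone reached beyond 2-fold. The median SE of the members was 0.110, against 0.148 over all genes. CPM and size factors give relative levels, so a change common to most genes would not be seen.

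**Figure D2:**
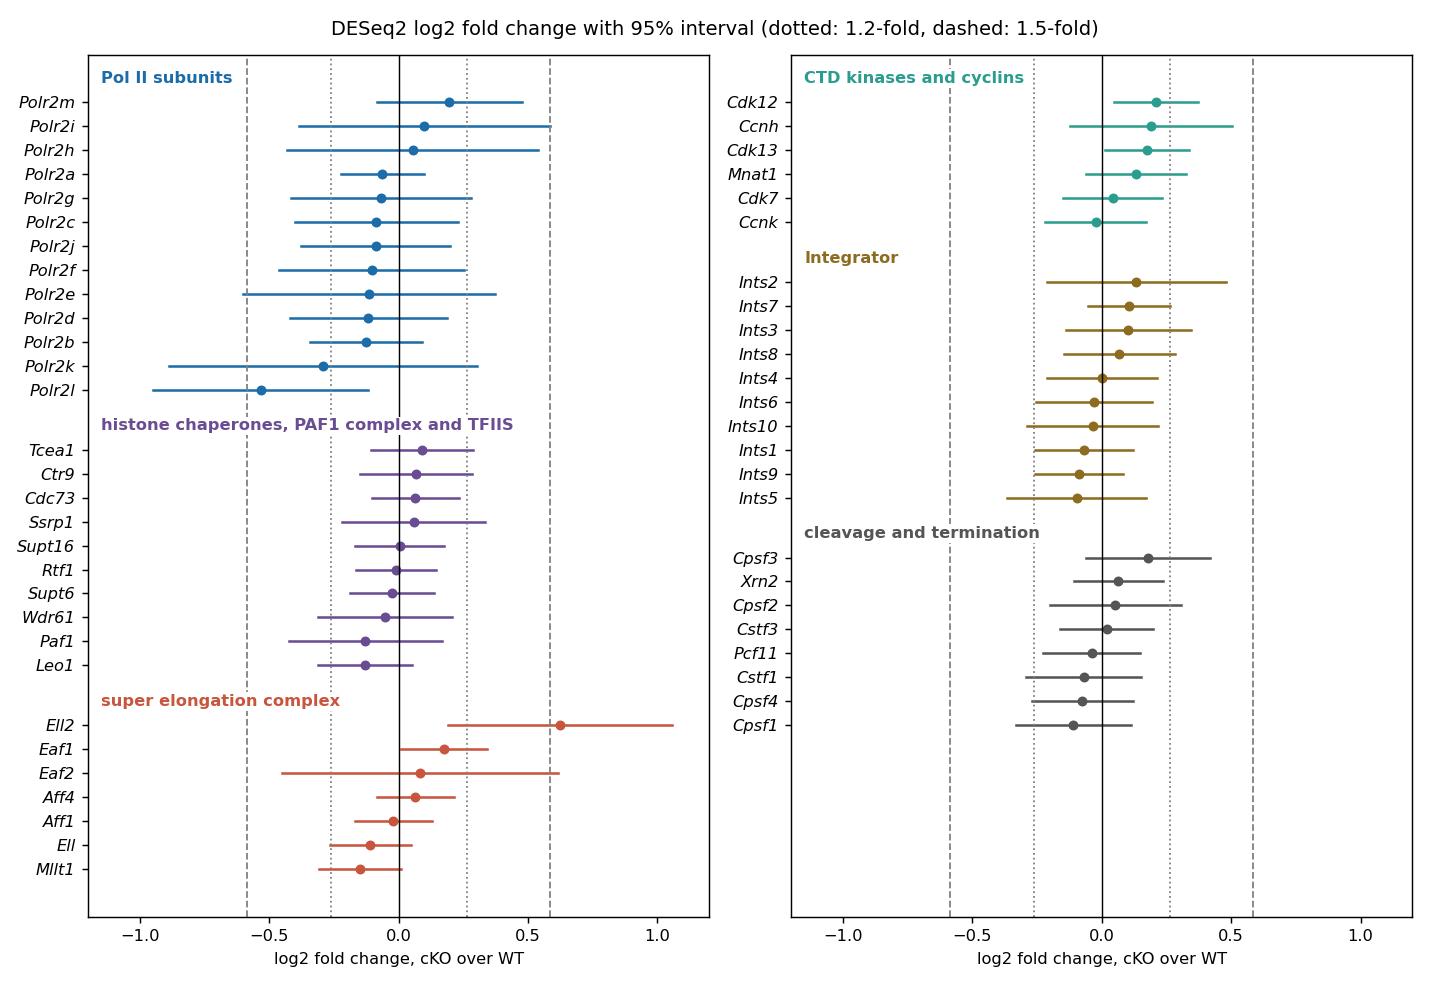
DESeq2 log2 fold change (cKO over WT) of each of the 54 genes with its 95% interval, by role, where dotted lines mark 1.2-fold and dashed lines 1.5-fold. Of the 54 intervals, 49 lie within the dashed lines, and those of Ell2, Eaf1, Cdk12 and Cdk13 above and of Polr2l below leave out 0.

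The 13 genes of Pol II subunits and of the Pol II-associated protein Polr2m held 3 positive and 10 negative log2 fold changes, with a median of -0.09 (-0.0584 on leaving out cKO replicate 1 and -0.136 on leaving out WT replicate 1), and 0 were called. Polr2a (chr11:69733999-69758633), which encodes the catalytic subunit with the CTD, gave 181 CPM in both WT libraries and 168 and 179.6 CPM in cKO. Both cKO values were below WT, the second by a small margin. Its log2 fold change was -0.06 (95% interval -0.22 to 0.10, DESeq2 adjusted p = 0.824), and as a fold the interval ran from 0.856 to 1.07. Without cKO replicate 1 the log2 fold change was -0.0065, and without cKO replicate 2 it was -0.12. Polr2b, which encodes RPB2, the partner of RPB1 in the active centre, gave 52.6 and 52.7 CPM in WT and 46.3 and 50.4 CPM in cKO (log2 fold change -0.13, interval -0.34 to 0.09, DESeq2 adjusted p = 0.711). Leaving out cKO replicate 1 gave -0.06 for Polr2b on the log2 scale, and leaving out cKO replicate 2 gave -0.19.

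The subunit furthest from 0 was Polr2l (chr7:141471860-141475153), which encodes RPB10, a small subunit shared with Pol I and Pol III. It gave 11.8 and 10.9 CPM in WT and 7.29 and 8.45 CPM in cKO, that is, 11.4 ± 0.666 and 7.87 ± 0.824 CPM (mean ± SD, n = 2 libraries each). The genotypes did not overlap, and the fold was 0.691 (95% interval 0.517 to 0.922). After adjustment it did not pass the test (log2 fold change -0.53, SE 0.213, DESeq2 adjusted p = 0.158), and it rested on 280 to 531 fragments per library. Its promoter, printed above, held 3 GC boxes and no TATA box.

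Polr2m, whose product GDOWN1 binds Pol II and competes with initiation factors, had the highest log2 fold change of the group at 0.20 (interval -0.08 to 0.48, DESeq2 adjusted p = 0.600). Its libraries gave 38.7 and 48.3 CPM in WT and 55.5 and 44.4 CPM in cKO, so the genotypes overlapped. The log2 fold change was 0.04 without WT replicate 1, 0.03 without cKO replicate 1, 0.37 without WT replicate 2 and 0.35 without cKO replicate 2. The other genes of subunits shared with Pol I and Pol III, Polr2e, Polr2f, Polr2h and Polr2k, had log2 fold changes of -0.12, -0.10, 0.06 and -0.29. Those of Polr2c and Polr2j, whose products form the assembly platform, were both -0.09. The stalk genes Polr2d and Polr2g had -0.12 and -0.07, and Polr2i 0.10. In the annotation used for the table, Polr2e lay wholly inside a feature of the same strand named Bc1, and Polr2k shared 26.1% of its length with Spag1 on the same strand, so fragments there could be split between features.

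Among the 10 genes of histone chaperones, the PAF1 complex and TFIIS, 5 log2 fold changes were positive and 5 negative, with a median of 0.00 and a range from -0.13 to 0.09. Supt6, the gene of the chaperone SPT6 that travels with elongating Pol II, gave 161 and 152 CPM in WT and 157 and 151 CPM in cKO, an interleaved pattern (log2 fold change -0.03, interval -0.19 to 0.14, DESeq2 adjusted p = 0.945). The FACT genes Supt16 and Ssrp1, whose products move H2A-H2B dimers, had log2 fold changes of 0.00 and 0.06. Those intervals ran from -0.17 to 0.17 and from -0.22 to 0.33.

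Of the PAF1 complex, Leo1 had the most negative value of this group. It gave 89.97 and 85.4 CPM in WT and 79.7 and 80.7 CPM in cKO, without overlap (log2 fold change -0.13, interval -0.31 to 0.05, DESeq2 adjusted p = 0.587). Its partners did not share one direction, with log2 fold changes of -0.13 for Paf1, -0.05 for Wdr61, -0.01 for Rtf1, 0.06 for Cdc73 and 0.07 for Ctr9. Tcea1, which encodes TFIIS, the factor that restarts backtracked Pol II by stimulating cleavage of its transcript, gave 58.3 and 58.6 CPM in WT and 62.04 and 62.7 CPM in cKO (log2 fold change 0.09, interval -0.11 to 0.29, DESeq2 adjusted p = 0.789).

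The super elongation complex holds the member with the largest log2 fold change, Ell2, and 4 of its 7 genes had positive values (median 0.06). The median was between 0.0307 and 0.0357 when WT replicate 2, cKO replicate 1 or cKO replicate 2 was left out, and 0.0313 with the trend with gene length removed. Ell2 (chr13:75707484-75772358) encodes an ELL family factor that raises the elongation rate. It gave 7.55 and 8.15 CPM in WT and 13.8 and 10.5 CPM in cKO, that is, 7.85 ± 0.424 and 12.1 ± 2.37 CPM (mean ± SD, n = 2 each). The genotypes did not overlap, and the cKO libraries differed more from each other than the WT libraries did. The fold was 1.54 (95% interval 1.14 to 2.08, log2 fold change 0.62, SE 0.22), and the DESeq2 adjusted p of 0.0873 missed the threshold. Without cKO replicate 1 the log2 fold change was 0.42, without cKO replicate 2 it was 0.81, and without WT replicate 1 it was 0.56.

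Eaf1 encodes a cofactor of the ELL proteins and is the second most transcribed member per kb. It gave 117 and 119.8 CPM in WT and 132.5 and 135 CPM in cKO, without overlap (log2 fold change 0.18, interval 0.01 to 0.34, DESeq2 adjusted p = 0.305). Mllt1, the gene of ENL, which reads acetylated histones, lay the other way with 150.2 and 151 CPM in WT and 138 and 135 CPM in cKO (log2 fold change -0.15, interval -0.31 to 0.01, DESeq2 adjusted p = 0.404). The remaining genes of the complex were nearer 0. Ell had a log2 fold change of -0.11, Aff1 of -0.02, Aff4 of 0.06 and Eaf2 of 0.08. With 2074 and 1847 CPM in WT and 1905 and 1969 CPM in cKO, Aff1 had the narrowest interval of all members (-0.17 to 0.13). Iqcb1 overlaps 54.1% of Eaf2 on the opposite strand, and in another such pair the counts of one strand did not reach the other gene: B3galt2, which shares 9241 bp with Cdc73 (1.21 CPM per kb), had a mean of 0.0191 CPM.

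The CTD kinases and their cyclins had 5 positive values among 6 genes and a median log2 fold change of 0.15, the group median furthest from 0 with all libraries kept. Without WT replicate 1 this median was 0.133, and that of the Pol II subunits was -0.136. Cdk12 (chr11:98203305-98253540) encodes a CTD kinase that keeps Pol II processive on long genes. It gave 123 and 120.1 CPM in WT and 143 and 139 CPM in cKO, that is, 122 ± 2.38 and 141 ± 2.66 CPM (mean ± SD, n = 2 each). The genotypes did not overlap, which in this direction also held for 24.9% of all genes. The fold of 1.16 (95% interval 1.03 to 1.295, log2 fold change 0.21, SE 0.0829) was below the minimum of 1.2, and the DESeq2 adjusted p was 0.149. Its close relative Cdk13 (chr13:17715962-17805097) gave 211 and 189.6 CPM in WT and 229.8 and 223 CPM in cKO, also without overlap (log2 fold change 0.17, interval 0.01 to 0.34, DESeq2 adjusted p = 0.295). Without WT replicate 2 its log2 fold change was 0.11.

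Cyclin K is the partner of both kinases. Its gene Ccnk gave 67.3 and 63.8 CPM in WT and 65.05 and 64.2 CPM in cKO, which overlap (log2 fold change -0.02, interval -0.22 to 0.17, DESeq2 adjusted p = 0.961). The difference between the log2 fold changes of Cdk12 and Ccnk was not tested. The genes of the CDK-activating kinase, the TFIIH module that phosphorylates the CTD at initiation, had log2 fold changes of 0.04 (Cdk7), 0.13 (Mnat1) and 0.19 (Ccnh), and all 3 intervals included 0. The median length of the 6 genes was 42077 bp, against 29390 bp for all members. The group median became 0.11 when each library's trend with gene length was removed, and it lay between 0.12 and 0.13 when any of the libraries was left out.

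**Figure D3:**
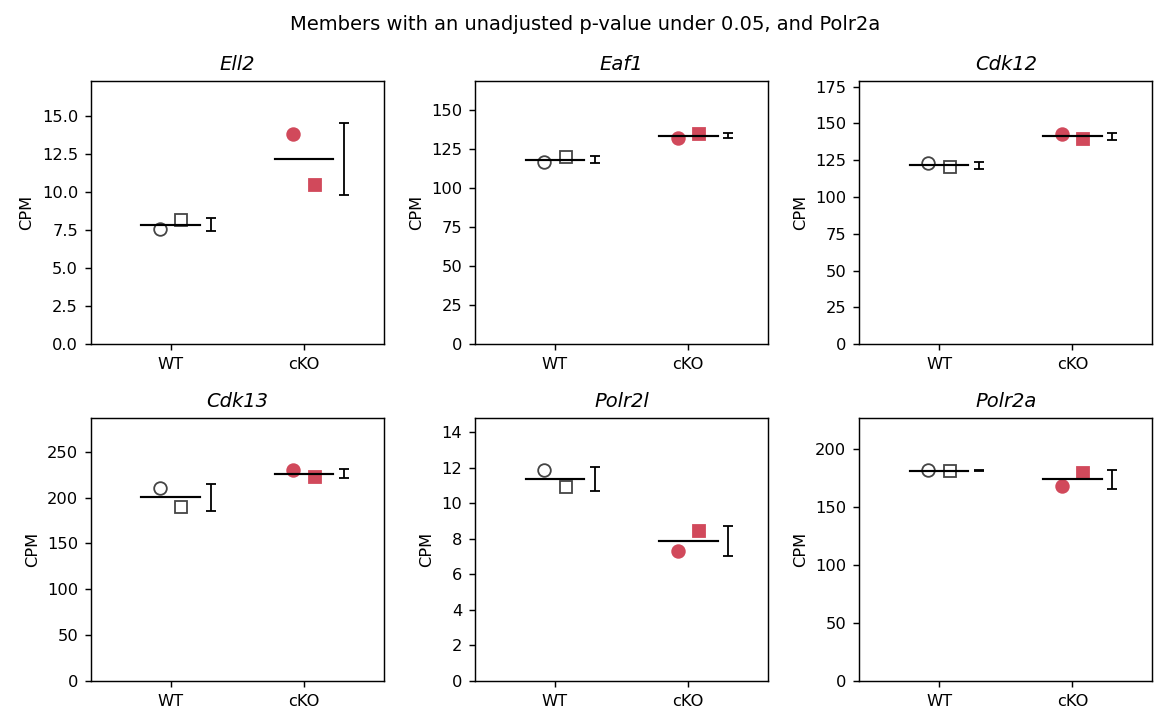
Level in CPM (axes from 0) of the 5 genes with an unadjusted DESeq2 p under 0.05 and of Polr2a, in each library, where circles are replicate 1, squares replicate 2, horizontal lines group means and side bars ± 1 SD (n = 2). Ell2, Eaf1, Cdk12 and Cdk13 lie higher and Polr2l lower in both cKO libraries than in both WT libraries, and the Polr2a values lie between 168 and 181 CPM.

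Of the 10 Integrator genes, which encode subunits of the complex that cleaves nascent RNA and ends transcription near promoters, 5 had positive and 5 negative log2 fold changes, with a median of -0.01. Ints2 had the highest at 0.13 (interval -0.21 to 0.48, DESeq2 adjusted p = 0.832). It gave 15.3 and 14.7 CPM in WT and 14.9 and 18.1 CPM in cKO, so the value came from cKO replicate 2, without which it was -0.02. On the opposite strand Brip1os overlaps 100% of Ints2, with a mean of 75.9 CPM and a log2 fold change of 0.32 (DESeq2 adjusted p = 0.103). Whether fragments of Brip1os entered the count of Ints2 was not tested. Ints5 had the lowest at -0.10, with 31.6 and 34.6 CPM in WT and 28.7 and 33.2 CPM in cKO (interval -0.37 to 0.17, DESeq2 adjusted p = 0.842). It became 0.01 without cKO replicate 1. The other log2 fold changes were 0.11 for Ints7, whose WT libraries gave 170.2 and 172 CPM and cKO libraries 179.8 and 189 CPM without overlap, 0.10 for Ints3, 0.07 for Ints8 and 0.00 for Ints4. On the other side of 0 they were -0.03 for Ints6, -0.04 for Ints10, -0.07 for Ints1, the gene of the largest subunit, and -0.09 for Ints9, whose product partners the catalytic subunit. Although their products act in one complex, the Integrator genes ranged from 0.336 CPM per kb (Ints2) to 6.53 CPM per kb (Ints5).

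The 8 cleavage and termination genes were evenly divided as well, 4 positive and 4 negative, with a median log2 fold change of -0.01. Xrn2 encodes the exonuclease that degrades the downstream RNA and helps to dislodge Pol II. It gave 188 and 164 CPM in WT and 183 and 186 CPM in cKO, all within the range of WT (log2 fold change 0.06, interval -0.11 to 0.24, DESeq2 adjusted p = 0.841). Without WT replicate 2 the value was -0.02. Pcf11, whose product binds the CTD and bridges cleavage to termination, gave 90.06 and 83.2 CPM in WT and 87.1 and 81.9 CPM in cKO (log2 fold change -0.04, interval -0.23 to 0.15, DESeq2 adjusted p = 0.920).

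Cpsf3, which encodes the endonuclease that cuts the pre-mRNA, had the highest value of the group at 0.18. It gave 36.9 and 38.8 CPM in WT and 45.8 and 40.04 CPM in cKO, without overlap (interval -0.06 to 0.42, DESeq2 adjusted p = 0.573). Leaving out cKO replicate 1 gave 0.09 on the log2 scale, and leaving out cKO replicate 2 gave 0.27. Cpsf1, the scaffold of the same complex, had the lowest at -0.11, with 47.2 and 43.9 CPM in WT and 42.9 and 41.7 CPM in cKO (interval -0.33 to 0.11, DESeq2 adjusted p = 0.770). It was -0.06 without WT replicate 1. The other subunits lay between these values, at -0.07 for both Cpsf4 and Cstf1, 0.02 for Cstf3 and 0.05 for Cpsf2.

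**Figure D4:**
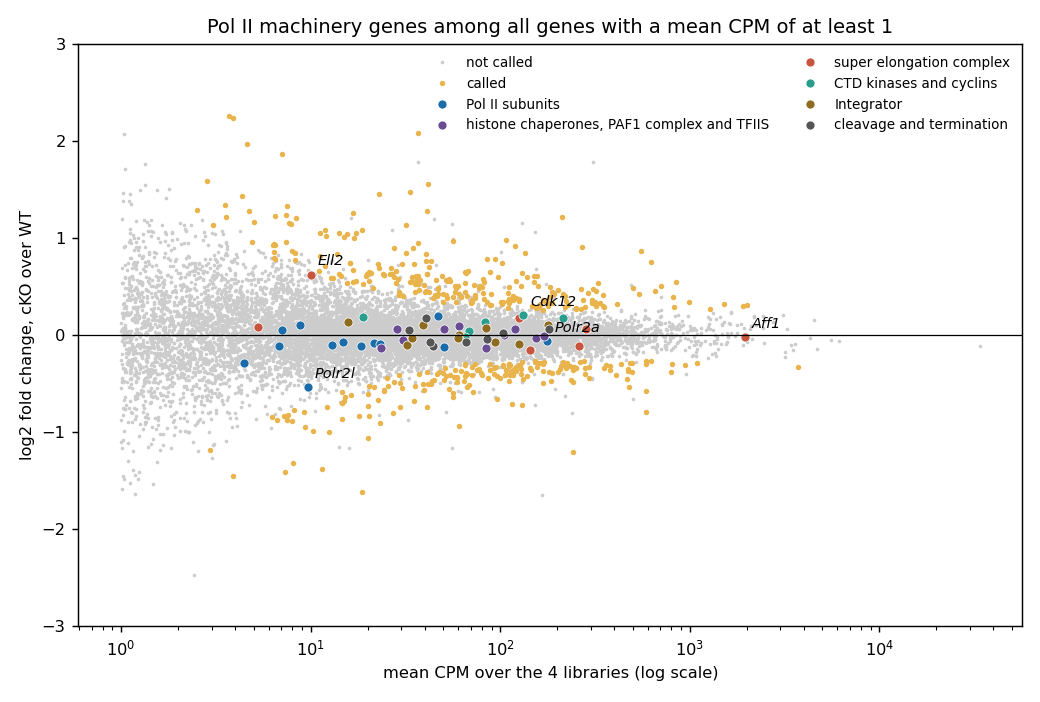
Log2 fold change (cKO over WT) against mean CPM over the 4 libraries (log axis) for the same 11625 genes, with the 54 machinery genes coloured by role and genes called in DESeq2 in yellow; 2 genes lie outside the vertical axis. None of the machinery genes is among the 431 called, and Ell2 (0.62) and Polr2l (-0.53) are the highest and lowest of them.

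The rest of the pathway, listed separately, gave a like picture. Of 62 further genes for pausing and P-TEFb, elongation, initiation, CTD phosphatases, Integrator and polyadenylation, 60 reached the same minimum mean CPM and 0 were called in either direction by DESeq2, against 3.71% of all genes, with 31 positive and 29 negative log2 fold changes and a median of 0.01. At an unadjusted DESeq2 p under 0.05 there were 4, named here after their values were seen, and 6 by edgeR and by limma voom each, against 13.5%, 15.6% and 15.7% of all genes. Supt5, the gene of the elongation factor SPT5, gave 154 and 140.2 CPM in WT and 122 and 127 CPM in cKO, without overlap (log2 fold change -0.24, DESeq2 adjusted p = 0.102). The others were Hexim1, the gene of an inhibitor of P-TEFb (log2 fold change -0.23, DESeq2 adjusted p = 0.230), Nelfe, a subunit gene of the pausing factor NELF (0.46, DESeq2 adjusted p = 0.338), and Gtf2a1 of the initiation factor TFIIA (0.33, DESeq2 adjusted p = 0.140).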

How the data were processed

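Nascent RNA was measured by TTchem-seq in 4 libraries, 2 per genotype, grouped by sample title. Per the study's methods and the labels, the authors filtered reads with fastp 0.13.1, aligned them with STAR 2.7.9a to GRCm38 (mm10) and counted over RefGene genes, and the submitters' processing notes also name featureCounts 1.6.1. Values in the deposited table are expected counts over gene spans that include introns. Of them 8.61% were fractional, and how fractions were assigned is not given in the sources used here. It has 0 yeast rows, and spike-ins were not used for scaling, as in the authors' own analysis. The methods describe rRNA depletion of the purified RNA, whereas the labels' library text describes poly(A) capture, and which was used was not settled.

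Counts were rounded and tested with the DESeq2 1.42.0 Wald test, as in the methods, with default size factors, unshrunken log2 fold changes and Benjamini-Hochberg adjustment. Genes were called at an adjusted p under 0.05, a fold of 1.2 or more and a mean CPM of 1 or more. CPM were computed here from the deposited counts and each library's total, and intervals are 95% Wald intervals that cover the spread between these libraries only. edgeR 4.0.16 (quasi-likelihood) and limma 3.58.1 (voom) were alternatives, beside other scalings, filters, a replicate block and each library left out. The fits were also run on simulated counts, but how often they recovered a set fold change is not given here.

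Of the mature single positive markers, 1 is not reported here. The members, the role groups, the pathway and marker lists and the naming rule were chosen with earlier results of these data known. Members were named with values in each library if any tool called them, if their unadjusted DESeq2 p was under 0.05, if they had the highest or lowest log2 fold change of their role, or if they were Polr2a, Polr2b, Polr2m, Supt6, Cdk12, Cdk13, Xrn2 or Pcf11; other members were given by their log2 fold changes, and Ints7 and Aff1 also by their values in each library. Of the members, 16 overlap another gene, 4 of these on the same strand, and 15 had fractional counts.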

Additional observations from a re-analysis of the deposited data

How the results depend on the processing

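Under all 16 alternatives, 0 members were called in either direction. For the 19 named members, none of 228 values under other tests, scalings, filters or the block changed sign or call. As none of these members was called in the main fit, an unchanged call says little. The unadjusted threshold that picked out Polr2l, Ell2, Eaf1, Cdk12 and Cdk13 was less stable. With the replicate block in DESeq2 only Ell2 still passed it, whereas with the block in edgeR all of these genes did. With each library's trend with gene length removed, Cdk13 no longer passed it and Mllt1 did. Of 76 values with 1 library left out, 7 changed sign: without WT replicate 1, Supt6 became 0.009 (range over left-out libraries -0.0636 to 0.009), Ccnk 0.0068 (-0.0553 to 0.0068) and Pcf11 0.0097 (-0.089 to 0.0097); without WT replicate 2, Xrn2 became -0.0235 (-0.0235 to 0.15); without cKO replicate 1, Ints5 became 0.0119 (-0.21 to 0.0119); and without cKO replicate 2, Ints2 became -0.0168 (-0.0168 to 0.27) and Pcf11 0.0001. The adjusted p of Ell2 ran from 0.0822 to 0.454 over the DESeq2, edgeR and voom alternatives that kept all 4 libraries. With each library's trend with gene length removed, the median log2 fold change was -0.028 for all members, -0.0636 for Pol II subunits, -0.0274 for chaperones, PAF1 and TFIIS, 0.0313 for the super elongation complex, 0.11 for CTD kinases and -0.0304 for cleavage and termination, moves larger than the replicate SD of these medians. With 1 library left out, these medians ran in the same order from -0.0226 to 0.0132, -0.136 to -0.0584, -0.0146 to 0.0244, 0.0307 to 0.0855, 0.124 to 0.133 and -0.029 to -0.0019, and that of Integrator from -0.0575 to 0.0516. In those fits the lone library of a genotype was assumed to vary like the other genotype.

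The call of Tox4 held less well. Its log2 fold change was -0.31 but missed the threshold with edgeR (adjusted p = 0.153), limma voom (0.145), total-count factors in DESeq2 (0.0511) and independent filtering off (0.0821), and it missed a fold of 1.5. It was -0.30 with the length trend removed (DESeq2 adjusted p = 0.0541) and ran from -0.34 to -0.28, past no threshold, with 1 library left out. Replicate numbers were not taken to pair the libraries (correlation of same-numbered deviations -0.03), although Rn45s, the rRNA precursor, made up 2.71% and 2.44% of all fragments in libraries numbered 1 and 4.305% and 4.05% in those numbered 2. With the replicate block Tox4 was -0.31 in DESeq2 (adjusted p = 0.361) and in edgeR (0.232). Over all genes, edgeR called 48 higher and 10 lower, voom 49 and 11, DESeq2 with the replicate block 121 and 72, and edgeR with the block 19 and 9. The cause of these differences was not tested.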

Other observations

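Members of the same elongation factor family differed strongly in transcriptional output, in mean CPM per kb over the 4 libraries; the relatives outside the 54 genes were named after their values were seen. Among the ELL genes, Ell had 4.92 CPM per kb, Ell2 0.154 and Ell3 0.0284, the last from at most 0.141 CPM in any library. The ELL cofactors were as uneven, with Eaf1 at 8.52 CPM per kb and Eaf2 at 0.0643. Of the AFF scaffolds, Aff1 had 19.3, Aff3 7.07 and Aff4 3.97 CPM per kb. The YEATS domain genes Mllt1 and Mllt3 were closer, at 3.36 and 2.68 CPM per kb. Of the TFIIS genes, Tcea1 had 1.502 CPM per kb, Tcea2 0.207 and Tcea3 0.00171. The spread between libraries was small beside these differences: Ell ranged from 4.58 to 5.31 CPM per kb and Ell2 from 0.116 to 0.213.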
